A study of Mus musculus with 9 samples.

Results

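This account concerns the genes that lay on the same side of Serum in mouse embryonic stem (ES) cells of both the Paused and the 2i condition. A gene was included when its Paused value and its 2i value were both above, or both below, the Serum value of the same cell line in each of 3 lines. Of 12711 genes tested, 3347 (26.3%) did so, 1645 above Serum (12.9%) and 1702 below (13.4%). A test of the mean of Paused and 2i against Serum called 1058 of the genes above Serum higher and 1244 of the genes below Serum lower, and these 2302 (18.1%) are called shared genes here. The side in every line chose the members, so it is a description and no result.

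The ES cells came from the established mouse lines E14, v6.5 and Oct4 GiP, at passages 20 to 23, grown on gelatin for 2 weeks as Serum, 2i or Paused cultures. Paused cells had received 200 nM INK128, which inhibits the kinase mTor, throughout those 2 weeks. The labels give neither the composition of the 2i and Serum media nor the medium in which the Paused cells were kept, and none of the lines carries a labelled gene deletion. RNA-seq gave 1 library per line and condition, 9 libraries in all, so each condition has 3 libraries and each is a different line. Expression is in FPKM (fragments per kilobase of transcript and per sequenced fragment, scaled by library), and the depth of the libraries is unknown because the file holds no read counts.

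Mouse ES cells can be kept in serum with LIF or in 2i, a name commonly used for a pair of inhibitors of MEK and GSK3, in which the cells take a more uniform naive state. The mTor kinase promotes growth: its complex mTORC1 raises ribosome production and translation and holds back lysosome formation and autophagy. Serum itself carries growth factors and lipids that act on the actin cytoskeleton and on the transcription factors Srf and Yap.

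The cells expressed ES cell genes in every library. Summed FPKM of 10 ES cell markers ran from 4678 to 6003 in Serum, from 4028 to 4741 in 2i and from 6592 to 6978 in Paused, and 0 of the 10 were below 1 FPKM in all libraries. Summed markers of some other cells were higher in Serum, without overlap for trophoblast, though single markers went the other way. Summed FPKM of 10 trophoblast markers was 49 to 284 in Serum, 15.3 to 24.4 in 2i and 8.08 to 26.6 in Paused (exact permutation test of 3 against 6 libraries, two-sided, p = 0.024, the smallest that 84 splits allow). Most of that sum was Krt8 and Krt18, while Elf5 and Plac1, which mark trophoblast more narrowly, were below 1 FPKM in all libraries. Krt7, Cdx2 and Hand1 were low, but in each all Serum libraries lay above all others. Hand1 was at 4.17, 0.444 and 1.18 FPKM in Serum (E14, v6.5 and Oct4 GiP) and at most 0.15 elsewhere. Cdx2 was at 2.51, 0.854 and 1.59 FPKM in Serum and at most 0.84 elsewhere. Of 6 tested trophoblast markers 4 were called lower and 1 higher, and Tfap2a was higher in 2i than in Serum in every line. Summed FPKM of 10 fibroblast feeder markers was 7.33 to 23.2 in Serum against 6.64 to 8.39 in 2i and 2.8 to 3.97 in Paused (same exact permutation test, p = 0.048), with Col1a2, Col3a1, Col6a1, Postn, Dcn and Lum below 1 FPKM in every library. Of 4 tested feeder markers 2 were called lower and 0 higher. Col1a1 was at 6.96, 1.11 and 2.71 FPKM in Serum (E14, v6.5 and Oct4 GiP) and at most 0.808 elsewhere. Thy1 lay below Serum in 2i and Paused in every line. Pdgfrb was higher in 2i than in Serum in every line, and Col5a1 was so in v6.5 and Oct4 GiP. Markers of primitive endoderm (p = 0.29), mesoderm (p = 0.45) and neural cells (p = 0.12) did not pass the same exact permutation test, which does not pair the lines. Within lines, Serum had the highest sum of the conditions in 3 of 3 lines for trophoblast, fibroblast feeder and neural markers. It had so in 2 for primitive endoderm and in 1 for mesoderm. The neural sum was 74 to 95.2 in Serum, 41.5 to 93.5 in 2i and 62.4 to 78.1 in Paused. Most of it was Tubb3. Of 5 tested neural markers 1 was called higher and 0 lower. Sox1 lay above Serum in 2i and Paused in every line, and Pax6 did so in Paused and lay below Serum in 2i. The part of such cells in the results was not tested.

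The authors also deposited each library's FPKM multiplied by 1 constant per library. This constant was 3.403 to 3.738 in the Serum libraries and 1.814 to 3.174 in the other 6 (exact permutation test, two-sided, p = 0.024). On these rescaled values the median change of all genes against Serum was −0.61 on the log2 scale, −0.88 in Paused and −0.33 in 2i, beside 0.014 on the FPKM scale. Of all tested genes 64% were called lower and 2.12% higher there, shares to set beside each rescaled count. Changes below are on the FPKM scale, hence relative to the bulk of the RNA in a library. Genes that fell there fell further on the rescaled values. For genes that rose the rescaled result is given only in part, so a rise without it may not hold on that scale. Of 123 called genes picked for naming by the rules given below, 106 kept the call on the rescaled values. Not all of these 123 appear in this account. Of the 1058 shared higher genes, 141 were called higher on them, and 29 of these also lay above Serum in every line.

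Log2 fold changes are differences in log2(FPKM + 1), given ± the standard error from limma. Adjusted p-values come from limma with Benjamini-Hochberg adjustment over all 12711 genes and 0.05 as the threshold. Library values are listed in the order E14, v6.5, Oct4 GiP.

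The mean of Paused and 2i was called higher than Serum for 1646 genes (12.9% of those tested) and lower for 1670 (13.1%). These shares are to be set beside the called count of each gene list below. With each library centred on its median gene these counts were 1271 and 2278. Without centring, 588 genes called higher and 426 called lower did not keep 1 side in every line, and 587 genes above Serum and 458 below in every line were not called. The 1058 shared higher genes (8.32%) had a median change of 0.54, with 0.44 in Paused and 0.65 in 2i. The 1244 shared lower genes (9.79%) had a median of −0.53, with −0.49 in Paused and −0.59 in 2i. A change of at least 1 in size was more frequent among the lower genes: 198 lower and 95 higher genes reached it, and 93 lower and 29 higher genes reached it in both conditions. The scale understates changes of low genes. Mean FPKM had a median of 8.59 in the shared higher and 31.4 in the shared lower genes, and its part in this difference was not tested. For E14, v6.5 and Oct4 GiP in turn, the medians of the shared higher genes were 0.47, 0.59 and 0.55 and those of the shared lower genes −0.45, −0.61 and −0.53. The plot of the change in Paused against the change in 2i shows how far these genes lie from Serum in each condition.

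**Figure D1:**
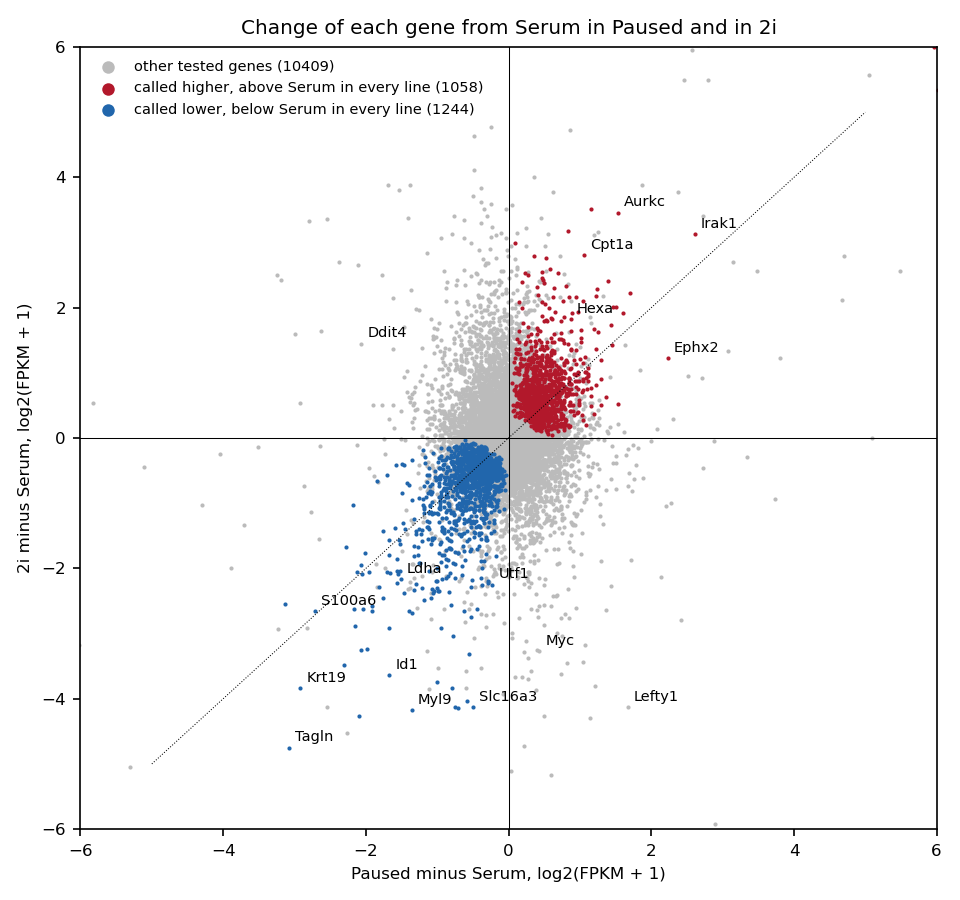
Each point is 1 of 12711 genes, with its Paused minus Serum change on the x axis and its 2i minus Serum change on the y axis, both in log2(FPKM + 1), and the dotted line marks equal change. The 1058 shared higher genes (red) and 1244 shared lower genes (blue) lie to the upper right and lower left by construction, and 13 genes, 2 of them shared, lie outside the axes, which end at 6.

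A stricter count asked each condition to pass alone. Paused against Serum was called for 18.2% of tested genes and 2i against Serum for 40.6%. Both conditions were called higher for 349 genes (2.75%) and lower for 502 (3.95%); both comparisons use the same Serum libraries, so this overlap is a count and no independent evidence. Of the shared higher genes, 554 passed alone only in 2i and 133 only in Paused. Of the shared lower genes, 541 passed alone only in 2i and 175 only in Paused. All Serum libraries lay below all others for 843 tested genes (6.63%) and above them for 1011 (7.95%). Of these, 650 were shared higher and 861 shared lower genes, counts that follow in part from how the shared genes were chosen.

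The calls depended on single libraries. Without the Serum library of Oct4 GiP, 81 genes were called higher and 114 lower, and without that of v6.5 the counts were 385 and 507. Leaving out other libraries also moved the counts by over 1.5 times: to 915 and 928 without E14 Serum, 958 and 985 without Oct4 GiP 2i, 909 and 919 without E14 Paused, 860 and 876 without v6.5 Paused, and 828 and 995 without Oct4 GiP Paused. Without the whole Oct4 GiP line 4 genes were called, all higher. Shared genes that kept their call whichever 1 library was left out numbered 58 higher and 94 lower, and those among the genes below are named as such.

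Just inside the threshold lay Ccnt1, a cyclin of the transcription elongation factor P-TEFb, with a change of 0.28 ± 0.08 (limma adjusted p = 0.04973), and Trim27 at −0.24 ± 0.07 (0.04973). Just outside it lay Irak1bp1 at −0.37 ± 0.11 (0.05003) and Cebpz at −0.20 ± 0.06 (0.05014). The changes of these genes were small. Other genes near the threshold, such as Ly6g6e and Klf4 below, had large changes with large standard errors.

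Promoters of 8 of the genes described below are printed first. They are a selection and not the 8 genes with the largest changes: Aurkc and Plac8 changed more than several of them and are not printed. How often a motif occurs among the 8 therefore says nothing about the shared genes. The sequences are the 250 bases before the annotated start, 5′ to 3′ on the gene's strand, from RefSeq (GRCm38.p6). Capitals mark matches to 5 motifs searched on both strands: the E-box CACGTG, read by Myc, Tfe3 and related factors; the CArG box of Srf; the AP-1 site TGANTCA; the TEAD site GGAATG; and the FoxO site TGTTTAC. Of all promoter entries, 6.05% hold the E-box, 1.4% the CArG box, 6.87% the AP-1 site, 12.6% the TEAD site and 3.09% the FoxO site. Of the 9788 tested genes with an entry, these shares were 8.7%, 1.14%, 3.89%, 10.6% and 2.11%.

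Irak1 (chrX:74023922-74024171, minus strand): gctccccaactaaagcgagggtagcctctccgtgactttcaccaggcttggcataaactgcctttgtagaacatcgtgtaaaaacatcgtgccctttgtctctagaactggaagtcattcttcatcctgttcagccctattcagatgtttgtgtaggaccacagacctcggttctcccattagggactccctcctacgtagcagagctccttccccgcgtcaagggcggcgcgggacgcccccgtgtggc
Klf15 (chr6:90462326-90462575, plus strand): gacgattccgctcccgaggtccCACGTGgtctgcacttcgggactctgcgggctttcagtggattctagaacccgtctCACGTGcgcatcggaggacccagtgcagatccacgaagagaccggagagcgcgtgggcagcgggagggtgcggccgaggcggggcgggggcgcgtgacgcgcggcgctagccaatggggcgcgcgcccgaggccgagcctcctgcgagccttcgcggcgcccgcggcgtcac
Hormad1 (chr3:95559427-95559676, plus strand): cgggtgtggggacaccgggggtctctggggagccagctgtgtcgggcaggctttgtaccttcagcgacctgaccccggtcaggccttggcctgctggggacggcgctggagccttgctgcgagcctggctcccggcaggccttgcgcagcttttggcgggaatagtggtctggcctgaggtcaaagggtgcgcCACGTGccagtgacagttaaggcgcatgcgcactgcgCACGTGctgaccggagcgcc
Ldha (chr7:46845554-46845803, plus strand): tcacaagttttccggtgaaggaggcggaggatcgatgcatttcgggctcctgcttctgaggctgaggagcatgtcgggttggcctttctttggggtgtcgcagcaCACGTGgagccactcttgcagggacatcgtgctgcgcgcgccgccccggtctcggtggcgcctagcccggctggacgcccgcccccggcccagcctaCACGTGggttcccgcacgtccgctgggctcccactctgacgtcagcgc
Myl9 (chr2:156775214-156775463, plus strand): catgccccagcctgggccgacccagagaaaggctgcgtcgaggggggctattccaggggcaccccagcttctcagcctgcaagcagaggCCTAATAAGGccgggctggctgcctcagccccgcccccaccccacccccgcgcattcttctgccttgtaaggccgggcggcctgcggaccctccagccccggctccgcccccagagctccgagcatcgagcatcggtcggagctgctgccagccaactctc
Cnn1 (chr9:22099003-22099252, plus strand): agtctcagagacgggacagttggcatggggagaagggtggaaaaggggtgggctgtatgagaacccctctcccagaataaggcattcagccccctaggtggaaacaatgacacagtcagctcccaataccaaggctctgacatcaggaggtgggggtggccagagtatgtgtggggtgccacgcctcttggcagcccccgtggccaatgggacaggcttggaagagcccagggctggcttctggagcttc
Krt8 (chr15:102004343-102004592, minus strand): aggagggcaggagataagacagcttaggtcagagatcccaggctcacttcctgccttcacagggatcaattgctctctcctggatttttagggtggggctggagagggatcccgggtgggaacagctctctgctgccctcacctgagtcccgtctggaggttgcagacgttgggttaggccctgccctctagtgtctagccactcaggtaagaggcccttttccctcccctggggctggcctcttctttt
Krt18 (chr15:102027966-102028215, plus strand): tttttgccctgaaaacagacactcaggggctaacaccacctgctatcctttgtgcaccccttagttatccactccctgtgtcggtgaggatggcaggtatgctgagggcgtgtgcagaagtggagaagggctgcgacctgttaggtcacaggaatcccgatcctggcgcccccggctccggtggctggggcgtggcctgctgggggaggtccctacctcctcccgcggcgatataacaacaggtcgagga

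Klf15, Hormad1 and Ldha each hold 2 E-boxes, in Klf15 228 and 172 bases, in Hormad1 57 and 20 bases and in Ldha 145 and 48 bases before the start. The first pair belongs to genes that rose and Ldha to the genes that fell. Myl9 holds a CArG box 161 bases before its start. The windows of Irak1, Cnn1, Krt8 and Krt18 hold none of the 5 motifs, which says only that these letters are not in them. Promoter entries were matched for 78.1% of the shared higher and 78.7% of the shared lower genes, which is too few for a comparison of base or motif content between sets, and none is given.

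Genes of the contractile actin cytoskeleton included some of the steepest falls. Of 29 tested genes of a list of actin and smooth muscle cytoskeleton genes, 16 fell and 0 rose, and 12 of the 16 were shared lower genes. The median change of the list was −0.56 (−0.58 in Paused, −0.57 in 2i), beside 0.014 for all genes. In the rescaled columns 28 of the 29 were called lower, beside 64% of all genes. The count was 10 without E14 Serum, 6 without Oct4 GiP Serum and 10 without E14 Paused. Tagln, a smooth muscle actin-binding protein and a classical Srf target, was at 114, 22.5 and 55.8 FPKM in Serum, 0.565, 1.19 and 1.29 in 2i, and 9.24, 3.77 and 4.18 in Paused. All Serum libraries lay above all others, and 2i lay below Paused in each line. Its change was −3.92 ± 0.41 (limma adjusted p = 0.0059), and it stayed called without any single library. In such bulk samples fewer cells of a type and less RNA per cell cannot be told apart.

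Other members of this group moved with Tagln to different degrees. Cnn1, the actin-binding calponin of smooth muscle, was at 10.6, 6.64 and 4.67 FPKM in Serum, 0.0644, 0.104 and 0.0694 in 2i, and 1.2, 0.745 and 0.481 in Paused, a change of −2.52 ± 0.17 (limma adjusted p = 0.0047). Myl9, a regulatory light chain of myosin, was at 34.3, 18.5 and 21 FPKM in Serum, 0.523, 0.363 and 0.253 in 2i, and 10.8, 10.3 and 5.72 in Paused, a change of −2.76 ± 0.18 (limma adjusted p = 0.0047). Both stayed called without any single library, and in both the groups did not overlap. In Myl9 the Paused cells stood between the other conditions, 2.81 above 2i (limma adjusted p = 0.00054). Acta2, smooth muscle actin, was at 12.5, 4.97 and 8.29 FPKM in Serum, 2.41, 2.01 and 2.41 in 2i, and 2.87, 3.22 and 2.58 in Paused, with 2i and Paused values closer together (−1.35 ± 0.21, limma adjusted p = 0.011).

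Genes reported as targets of Srf and Yap also had fallen members. Of 21 tested, 11 fell, 0 rose and 8 were shared lower genes, with a list median of −0.65 (−0.32 in Paused, −0.76 in 2i), and 17 were called lower on the rescaled values. The list shares genes with the actin list. Its count was 3 without E14 Serum and 0 without Oct4 GiP Serum. Cyr61, a secreted matricellular protein named here after its values were seen, was at 42.6, 32.1 and 28 FPKM in Serum, 4.79, 15.3 and 8.41 in 2i, and 14.1, 19.2 and 4.35 in Paused. No library of the other conditions reached the Serum level, though they varied between lines (−1.71 ± 0.39, limma adjusted p = 0.026). Thbs1, thrombospondin, was at 17.5, 2.64 and 7.53 FPKM in Serum, 0.0534, 0.0951 and 0.163 in 2i, and 2.8, 1.81 and 0.642 in Paused (−2.30 ± 0.42, limma adjusted p = 0.015). Here the E14 Paused library lay above v6.5 Serum, so the groups overlapped.

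Simple-epithelium keratins also had steep falls. Of 24 tested keratin, claudin and adhesion genes 12 fell, 1 rose and 10 were shared lower genes, with a median of −0.82, and −0.94, −0.69 and −0.58 for E14, v6.5 and Oct4 GiP. After rescaling, 19 were called lower and 1 higher. Without Oct4 GiP Serum the count was 3. Krt8, the type II keratin of simple epithelia, was at 161, 24.4 and 62.6 FPKM in Serum, 6.72, 12.8 and 11.3 in 2i, and 9.58, 7.16 and 3.45 in Paused (−2.84 ± 0.55, limma adjusted p = 0.017). Its partner Krt18 was at 108, 18.7 and 36.4 FPKM in Serum, 4.21, 3.03 and 1.69 in 2i, and 13.2, 11.7 and 2.63 in Paused (−2.90 ± 0.45, limma adjusted p = 0.011). Krt19 was at 55.4, 5.39 and 27.6 FPKM in Serum, 0.452, 0.633 and 0.473 in 2i, and 3.58, 1.91 and 0.78 in Paused (−3.38 ± 0.55, limma adjusted p = 0.012).

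For each of these keratins the groups did not overlap, E14 Serum was the highest library and v6.5 Serum the lowest of the Serum libraries. The adjusted p rose above the threshold without Oct4 GiP Serum (0.065 for Krt18, 0.073 for Krt19), and for Krt8 also without E14 Serum, with 0.091 the highest value. Krt8 and Krt18 are on the trophoblast marker list above and have near-identical pseudogenes in the genome, so their FPKM may be shared with those copies. Krt7, Krt8 and Krt18 are neighbours among the tested genes of chromosome 15, and all 3 were shared lower genes. Other such runs were Tuba1b, Tuba1a and Tuba1c on chromosome 15, which encode alpha-tubulins, and Tnfrsf12a, Cldn6 and Cldn9 on chromosome 17. In all, 132 runs of at least 2 neighbouring shared lower genes and 96 of shared higher genes were found. The longest had 4 and 5 genes, and members of tandem families can share fragments.

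Of 15 tested S100 and annexin genes, calcium-binding proteins of the cell cortex, 6 fell and 2 rose, with 5 shared lower genes; the list median was −0.53. The count of fallen genes was 3 without E14 Serum and 0 without Oct4 GiP Serum. As rescaled by the authors, 10 of the 15 were lower and 0 higher, near the 64% of all genes called lower there. S100a6 was at 117, 33.7 and 115 FPKM in Serum, 8.31, 14.5 and 12.1 in 2i, and 17.3, 6.89 and 10.7 in Paused. The values of both conditions below Serum were close to each other (−2.69 ± 0.40, limma adjusted p = 0.0099, and Paused minus 2i −0.05, limma adjusted p = 0.94). Anxa2, an annexin at the plasma membrane, was at 41.7, 6.07 and 18.9 FPKM in Serum, 5.44, 3.14 and 1.22 in 2i, and 6.36, 5.98 and 3.45 in Paused (−1.90 ± 0.44, limma adjusted p = 0.027), and v6.5 Serum overlapped with E14 Paused. Matrix genes were mixed: of 25 tested, 9 fell and 4 rose, beside 13.1% and 12.9% of all tested genes. The count of fallen matrix genes was 5, 4 and 1 without the E14, v6.5 and Oct4 GiP Serum libraries. Col4a1, a basement membrane collagen, was at 7.82, 5.32 and 7.86 FPKM in Serum, 1.29, 2.23 and 2.69 in 2i, and 1.54, 2.8 and 1.52 in Paused (−1.42 ± 0.22, limma adjusted p = 0.011). Nid1, which links laminin to such collagen and is named after its values were seen, rose by 1.56 ± 0.35 (limma adjusted p = 0.024), from 28.7, 6.66 and 16.1 FPKM to 58.5, 80.7 and 72.4 in 2i and 34.3, 19.9 and 36.5 in Paused.

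Several further genes fell steeply outside these lists. Plac8, a small cysteine-rich protein, was at 35, 19.2 and 16 FPKM in Serum, 0.187, 0.27 and 0.151 in 2i, and 8.83, 3.75 and 2.36 in Paused (−3.18 ± 0.24, limma adjusted p = 0.0047). Klhl13, an adaptor of a ubiquitin ligase, was at 107, 32.9 and 56.7 FPKM in Serum, 19.9, 7.94 and 14.4 in 2i, and 23.6, 5.54 and 14.6 in Paused (−2.10 ± 0.13, limma adjusted p = 0.0047). In Klhl13 each line kept its rank in every condition, and the 2i and Paused values were close (Paused minus 2i −0.06, limma adjusted p = 0.75). Car2, carbonic anhydrase 2, was at 116, 89.8 and 173 FPKM in Serum, 18.2, 13.7 and 24.9 in 2i, and 50.9, 28.6 and 65.4 in Paused (−2.03 ± 0.09, limma adjusted p = 0.0019); it is named after its values were seen. These 3 genes stayed called without any single library, as did AU015836 (−2.66 ± 0.28) and Psors1c2 (−2.07 ± 0.29). Nes, the intermediate filament nestin, changed by −2.33 ± 0.27 and Igfbp3, which binds insulin-like growth factors, by −2.61 ± 0.31, and both had an adjusted p of 0.053 without Oct4 GiP Serum.

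**Figure D2:**
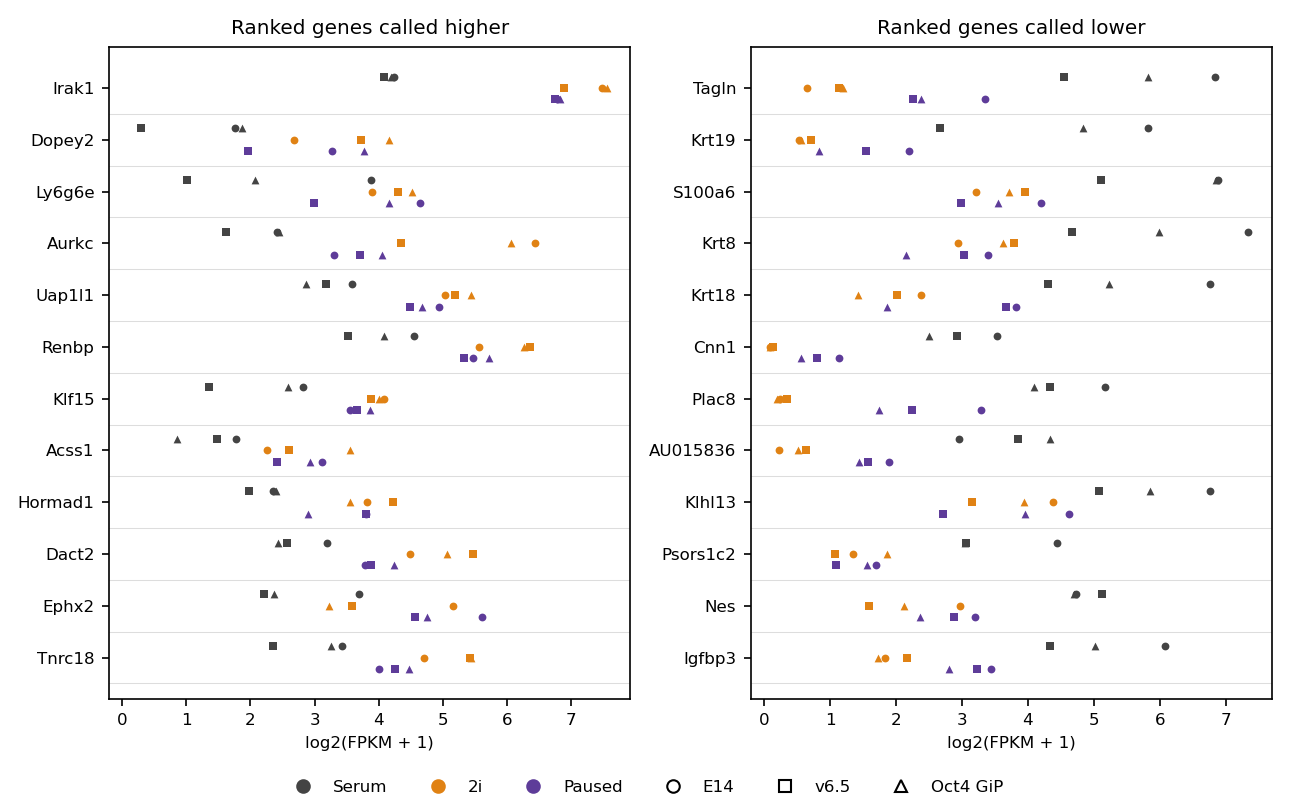
Points give log2(FPKM + 1) of each library for the 12 highest-ranked shared higher genes (left) and the 12 highest-ranked shared lower genes (right), with conditions by colour and lines by shape. Every 2i and Paused point lies on 1 side of the Serum point of its own line, and in Ly6g6e and Ephx2 the conditions overlap between lines.

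Among the genes that rose, Irak1 had the largest change shared by both conditions. Irak1, a kinase of Toll-like and interleukin-1 receptor signalling, was at 17.9, 15.9 and 17.3 FPKM in Serum, 177, 117 and 188 in 2i, and 109, 106 and 112 in Paused. All 6 libraries lay far above all Serum libraries, and the lines varied little. The change was 2.87 ± 0.12 (limma adjusted p = 0.0018), it was 2.27 on the rescaled values, and it stayed called without any single library (adjusted p at most 0.032).

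Enzymes made up several of the other large rises. Uap1l1, related to the enzyme that makes UDP-N-acetylglucosamine, was at 11, 8.05 and 6.26 FPKM in Serum, 31.6, 35.6 and 42.3 in 2i, and 29.8, 21.4 and 24.5 in Paused (1.75 ± 0.18, limma adjusted p = 0.0057). Renbp, an epimerase of N-acetylglucosamine, was at 22.4, 10.5 and 16 FPKM in Serum, 46.5, 80.9 and 75.6 in 2i, and 43.3, 39.2 and 51.8 in Paused (1.73 ± 0.26, limma adjusted p = 0.01). Ephx2, soluble epoxide hydrolase, was at 11.9, 3.64 and 4.19 FPKM in Serum, 34.8, 11 and 8.37 in 2i, and 48.1, 22.8 and 26.1 in Paused (1.73 ± 0.17, limma adjusted p = 0.0057). Of these enzymes Ephx2 alone was higher in Paused than in 2i by the test (0.99, limma adjusted p = 0.0085), and its E14 Serum library overlapped with 2i. Cpt1a, which admits fatty acids to mitochondria and is named after its values were seen, was at 8.65, 4.33 and 5.27 FPKM in Serum, 61.9, 37.9 and 44.5 in 2i, and 14.5, 9.84 and 16.4 in Paused. It stayed called without any single library, and its change of 1.94 ± 0.13 (limma adjusted p = 0.0047) came with Paused minus 2i of −1.75 (limma adjusted p = 0.00084). On the rescaled values its E14 Paused library lay below E14 Serum. Acss1, a mitochondrial acetyl-CoA synthetase, rose by 1.44 ± 0.35 (limma adjusted p = 0.029), but lost the call without any of 6 libraries (v6.5 Serum, Oct4 GiP Serum, v6.5 2i and each Paused library).

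Germline and regulatory genes followed. Aurkc, an Aurora kinase of meiosis, was at 4.32, 2.08 and 4.46 FPKM in Serum, 85.7, 19.4 and 66.1 in 2i, and 8.9, 12.1 and 15.6 in Paused (2.49 ± 0.36, limma adjusted p = 0.0092). Hormad1, a protein of the meiotic chromosome axis, was at 4.1, 2.95 and 4.26 FPKM in Serum, 13.1, 17.6 and 10.7 in 2i, and 12.9, 13 and 6.47 in Paused (1.44 ± 0.23, limma adjusted p = 0.011). Neither gene's groups overlapped, and for Aurkc Paused minus 2i was −1.93 (limma adjusted p = 0.011). Of 18 tested genes of a germline and meiosis list, 6 rose, 1 fell and 1 was a shared higher gene. Among all tested genes these shares were 12.9%, 13.1% and 8.32%. The list median was 0.46. Aurkc and Hormad1 were both shared higher genes, so at most 1 of them is on this list. The count of risen genes was 2 without E14 Serum, 1 without v6.5 Serum, 1 without Oct4 GiP Serum, 3 without Oct4 GiP 2i, 2 without E14 Paused and 2 without v6.5 Paused. In the rescaled columns 4 were higher and 4 lower. Klf15, a Krüppel-like factor, was at 6.05, 1.56 and 5.03 FPKM in Serum, 16, 13.7 and 15.1 in 2i, and 10.8, 11.6 and 13.5 in Paused (1.59 ± 0.25, limma adjusted p = 0.011). Dact2 (1.76 ± 0.27) and Tnrc18 (1.71 ± 0.27) rose without overlap of the groups. Ly6g6e (1.77 ± 0.49, limma adjusted p = 0.042) and Dopey2 (1.96 ± 0.40, limma adjusted p = 0.019) rose with lines far apart, and Dopey2 stands on a second row of the table, so its level is uncertain.

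Lysosomal genes were the list with the most risen members. Of 38 tested, 24 rose, 0 fell and 17 were shared higher genes, with a median of 0.46, higher in 2i (0.64) than in Paused (0.23) and similar in the lines (0.50, 0.46 and 0.41). The count was 14 without v6.5 Serum and 3 without Oct4 GiP Serum. On the rescaled values 6 were called higher and 12 lower, with a median of −0.17, so the direction of the list depends on the scale. Hexa, the alpha subunit of beta-hexosaminidase, which trims gangliosides, was at 23.3, 17.7 and 16.1 FPKM in Serum, 68.2, 66.9 and 71.1 in 2i, and 45.8, 32.5 and 29.1 in Paused (1.34 ± 0.12, limma adjusted p = 0.0053). Ctsa, cathepsin A, was at 20.5, 18 and 17.1 FPKM in Serum, 33.4, 47.6 and 48.8 in 2i, and 36.6, 28.2 and 35.7 in Paused (0.99 ± 0.16, limma adjusted p = 0.011). In the mean of Paused and 2i both also rose on the rescaled values, by 0.73 and 0.37. In Paused alone, however, rescaled Hexa lay slightly below Serum in every line, and rescaled Ctsa lay below it in E14 and v6.5. Hexa stayed called on the FPKM scale without any single library.

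Of 36 tested autophagy genes, 11 rose, 1 fell and 8 were shared higher genes, with a median of 0.28. The count of risen genes was 4 without E14 Serum, 3 without v6.5 Serum, 1 without Oct4 GiP Serum, 6 without v6.5 2i, 5 without Oct4 GiP 2i, 4 without E14 Paused, 6 without v6.5 Paused and 6 without Oct4 GiP Paused. It was 7 when libraries were corrected for GC content and length of transcripts, and on the rescaled values 0 were higher and 16 lower. Fnip1, a folliculin partner that acts on lysosomal mTORC1 signalling, was at 3.88, 4.09 and 3.63 FPKM in Serum, 5.95, 6.71 and 6.21 in 2i, and 8.82, 8.89 and 8.29 in Paused. The conditions did not overlap, Paused lay above 2i (0.41, limma adjusted p = 0.013), and the call for the change of 0.79 ± 0.08 (limma adjusted p = 0.0057) held without any single library. Map1lc3b, the LC3 protein of autophagosome membranes, was at 44.6, 59.1 and 57.1 FPKM in Serum, 87.7, 104 and 124 in 2i, and 54.6, 69.9 and 88 in Paused (0.67 ± 0.08, limma adjusted p = 0.0077), with E14 Paused below v6.5 Serum. On the rescaled values Fnip1 (0.26) and Map1lc3b (0.03) kept their direction in the mean of Paused and 2i and were not called. In Paused alone, however, rescaled Map1lc3b lay below Serum in every line.

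The FoxO and insulin receptor list had 10 risen and 1 fallen gene of 23 tested, 6 of them shared higher genes, with a median of 0.37. The count of risen genes was 6 without E14 Serum, 4 without v6.5 Serum, 2 without Oct4 GiP Serum, 6 without E14 Paused and 6 without Oct4 GiP Paused. After rescaling, 2 were higher and 7 lower. Foxo3, a transcription factor held in the cytoplasm by Akt, was at 14.8, 14.8 and 13.6 FPKM in Serum, 25.9, 37.8 and 32.5 in 2i, and 23.2, 27 and 21.5 in Paused (0.89 ± 0.11, limma adjusted p = 0.0073). Cdkn1b, the cyclin-dependent kinase inhibitor p27, was at 16.9, 16.9 and 19.8 FPKM in Serum, 37, 40.5 and 42 in 2i, and 26.1, 27.2 and 33.7 in Paused (0.89 ± 0.07, limma adjusted p = 0.0049). Neither gene's groups overlapped, and Cdkn1b stayed called without any single library. On the rescaled values both genes lay below Serum in Paused in every line.

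Of 32 tested mTor pathway genes, 8 rose and 2 fell, beside 12.9% and 13.1% of all tested genes, with a list median of −0.01. The count of risen genes was 4 without E14 Serum, 1 without v6.5 Serum, 0 without Oct4 GiP Serum, 5 without Oct4 GiP 2i, 4 without v6.5 Paused and 3 without Oct4 GiP Paused, and on the rescaled values 0 were higher and 23 lower. Deptor, an inhibitor that binds mTor, was at 4.23, 5.47 and 3.3 FPKM in Serum, 12.3, 8.45 and 8.62 in 2i, and 9.3, 11.8 and 9.09 in Paused, close to each other in both conditions (1.04 ± 0.16, limma adjusted p = 0.0099). Mtor itself, the target of INK128, was at 18.9, 16.4 and 14.9 FPKM in Serum, 21.4, 18.7 and 17.4 in 2i, and 26.5, 25.1 and 25.7 in Paused. It rose by 0.39 ± 0.08 (limma adjusted p = 0.017) and was higher in Paused than in 2i, and on the rescaled values it changed by −0.23 and was not called. Ddit4, an mTORC1 inhibitor induced by stress, lay on opposite sides: 26.6, 43.8 and 28.5 FPKM in Serum, 132, 75.9 and 72.1 in 2i, and 10, 8.48 and 3.73 in Paused.

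Genes of ribosome production were mostly called lower. Of 40 tested ribosome biogenesis genes, 31 fell, 0 rose and 27 were shared lower genes, with a median of −0.40, −0.20 in Paused and −0.52 in 2i; on the rescaled values all 40 were lower. The count was 20 without E14 Serum, 12 without v6.5 Serum, 4 without Oct4 GiP Serum, 19 without Oct4 GiP 2i, 18 without E14 Paused and 19 without v6.5 Paused. Nhp2, a protein of box H/ACA RNA-modifying particles, was at 397, 383 and 434 FPKM in Serum, 217, 186 and 228 in 2i, and 274, 228 and 277 in Paused (−0.79 ± 0.06, limma adjusted p = 0.0047). Nop16, a nucleolar protein, was at 63.9, 64.5 and 67.6 FPKM in Serum, 42.7, 37.5 and 42.9 in 2i, and 36.7, 32.3 and 44.2 in Paused (−0.72 ± 0.08, limma adjusted p = 0.0068). Both had no overlap and stayed called without any single library, and Nhp2 was 0.31 higher in Paused than in 2i (limma adjusted p = 0.015).

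Of 40 tested translation factors, 16 fell and 1 rose, all of them shared genes, with a median of −0.23. The count of fallen genes was 7, 3 and 1 without the E14, v6.5 and Oct4 GiP Serum libraries, 8 without Oct4 GiP 2i, and 8, 7 and 9 without the E14, v6.5 and Oct4 GiP Paused libraries. After rescaling, 37 were lower. Eif6, which keeps ribosomal subunits apart, was at 203, 189 and 201 FPKM in Serum, 119, 111 and 119 in 2i, and 127, 125 and 127 in Paused (−0.70 ± 0.06, limma adjusted p = 0.0047), and it stayed called without any single library. Eif4a2, an RNA helicase of cap-dependent translation, rose by 0.54 ± 0.06 (limma adjusted p = 0.0065), from 148, 152 and 132 FPKM in Serum to 230, 246 and 197 in 2i and 193, 212 and 183 in Paused. On the rescaled values Eif4a2 changed by −0.11, which was not called.

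Of 55 tested mitochondrial ribosomal protein genes, 29 fell, 1 rose and 21 were shared lower genes, with a median of −0.31, −0.42 in Paused and −0.16 in 2i; on the rescaled values all 55 were lower. The count was 15, 5 and 1 without the E14, v6.5 and Oct4 GiP Serum libraries, 14 without Oct4 GiP 2i, and 14, 13 and 18 without the E14, v6.5 and Oct4 GiP Paused libraries. Mrpl34 was at 115, 164 and 156 FPKM in Serum, 73.1, 93.7 and 97.8 in 2i, and 62.9, 82.5 and 88.8 in Paused (−0.79 ± 0.06, limma adjusted p = 0.0047), with E14 the lowest line in each condition. Oxidative phosphorylation genes moved apart instead. Of 74 tested, 12 fell, 2 rose and 3 were shared lower genes. Of all tested genes 13.1% were called lower, 12.9% higher and 9.79% were shared lower genes, so the fallen count was near the share of all genes. The list median was −0.41 in Paused and 0.13 in 2i. The count of fallen genes was 2, 1 and 0 without the E14, v6.5 and Oct4 GiP Serum libraries, 22 without E14 2i, 5 without Oct4 GiP 2i, and 5, 3 and 6 without the E14, v6.5 and Oct4 GiP Paused libraries. It was 5 when libraries were corrected for GC content and length of transcripts, and all 74 were lower on the rescaled values. The test of Paused minus 2i called 55 of the 74 lower in Paused and 0 higher, beside 24.6% and 19.8% of all tested genes.

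Several genes of glycolysis were called lower in the mean of both conditions. Of 25 tested glycolysis and glucose uptake genes, 13 fell, 0 rose and 12 were shared lower genes, with a median of −0.38 (−0.38 in Paused, −0.51 in 2i), and 20 were lower on the rescaled values. Without Oct4 GiP Serum the count was 6. Ldha, lactate dehydrogenase A, was at 660, 1059 and 598 FPKM in Serum, 231, 155 and 130 in 2i, and 282, 293 and 220 in Paused (−1.83 ± 0.18, limma adjusted p = 0.0057). Slc2a1, the glucose transporter GLUT1, was at 258, 209 and 253 FPKM in Serum, 99, 72 and 87.4 in 2i, and 126, 102 and 69.3 in Paused (−1.39 ± 0.16, limma adjusted p = 0.0069). Tpi1, triosephosphate isomerase, was at 239, 239 and 156 FPKM in Serum, 140, 91.7 and 93.2 in 2i, and 131, 92.6 and 99.6 in Paused (−0.96 ± 0.13, limma adjusted p = 0.0085). In these genes the groups did not overlap. The lactate exporter gene Slc16a3 differed between the conditions: it was at 37.4, 64.4 and 27.1 FPKM in Serum, 1.57, 1.38 and 1.17 in 2i, and 34, 53.5 and 12.2 in Paused. Paused minus Serum was −0.50 (limma adjusted p = 0.33) and Paused minus 2i 3.63 (limma adjusted p = 0.00089).

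Regulators of the cell cycle were called at shares near those of all genes. Of 36 tested genes of G1 and S phase, 7 rose and 4 fell, beside 12.9% and 13.1% of all tested genes. The risen count was 3, 2 and 1 without the E14, v6.5 and Oct4 GiP Serum libraries. The fallen count was 0 without v6.5 or Oct4 GiP Serum, 2 without Oct4 GiP 2i and 8 without E14 2i, and on the rescaled values 0 were higher and 27 lower. Ccnd1, cyclin D1, was at 100, 112 and 100 FPKM in Serum, 51.7, 38.7 and 41.4 in 2i, and 56.9, 63.4 and 85.1 in Paused (−0.93 ± 0.15, limma adjusted p = 0.012). Ccne1, cyclin E1, was at 164, 155 and 158 FPKM in Serum, 113, 56.3 and 70.2 in 2i, and 101, 99.1 and 113 in Paused (−0.82 ± 0.17, limma adjusted p = 0.019). Both cyclins lost the call without v6.5 Serum or Oct4 GiP Serum, and Ccne1 also without Oct4 GiP 2i. Of 20 tested Polycomb and H3K27 demethylase genes, 7 rose and 0 fell, with a median of 0.26, and on the rescaled values 1 was higher and 10 lower. That count was 2, 1 and 0 without the E14, v6.5 and Oct4 GiP Serum libraries, 4 without Oct4 GiP 2i, and 3, 2 and 2 without the E14, v6.5 and Oct4 GiP Paused libraries. Bmi1, a subunit of Polycomb repressive complex 1, was at 1.24, 2.01 and 2.52 FPKM in Serum, 9.56, 6.63 and 7.35 in 2i, and 2.86, 4.51 and 4.15 in Paused (1.17 ± 0.19, limma adjusted p = 0.012).

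**Figure D3:**
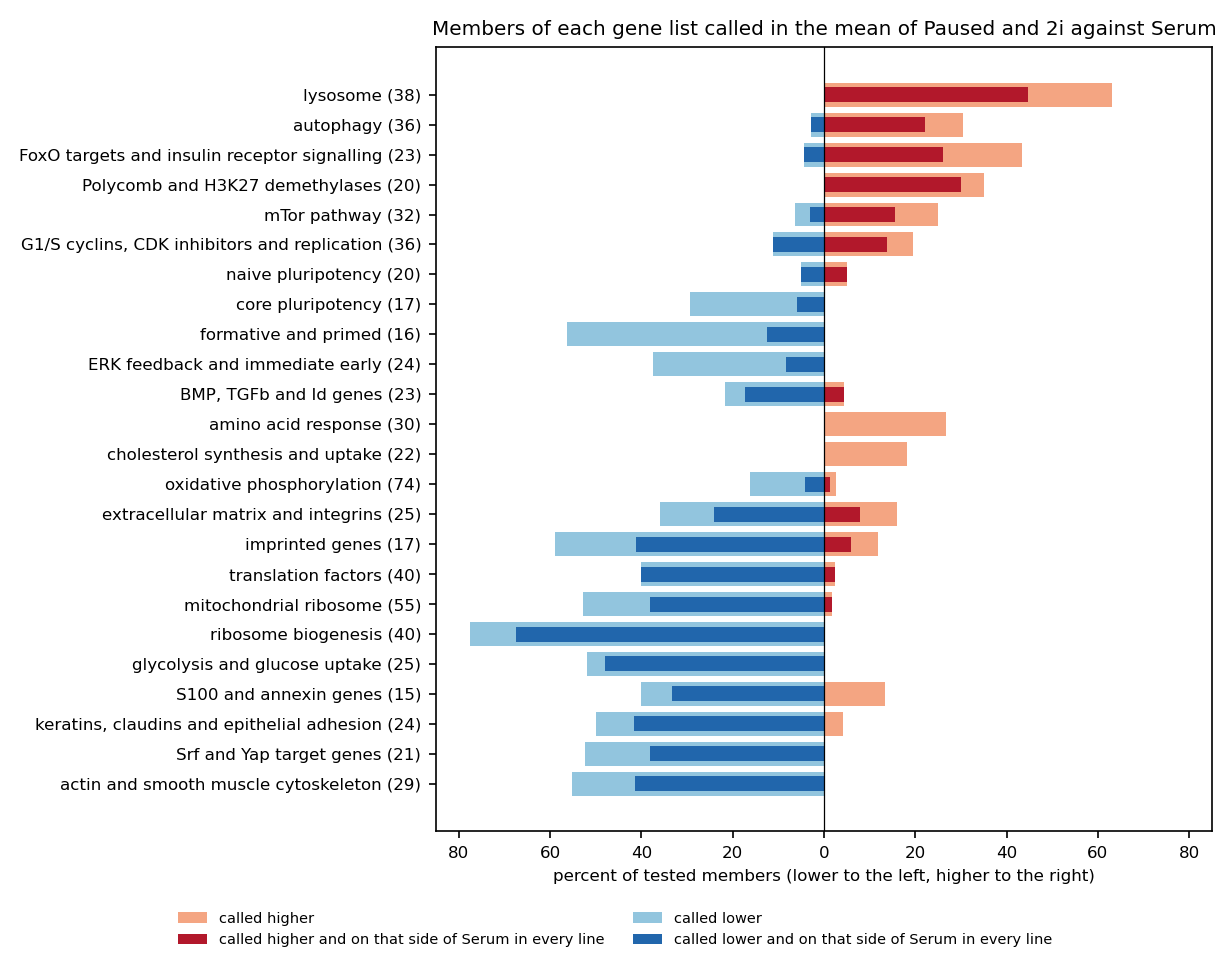
Bars give the percent of tested members (number in brackets) of each list that was called lower (left) or higher (right) in the mean of Paused and 2i against Serum, with pale bars for all calls and dark bars for members also on that side of Serum in every line. Ribosome biogenesis reaches furthest to the left and lysosome furthest to the right on the FPKM scale, while on the rescaled values the lysosome list had 6 genes higher and 12 lower.

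Id genes, inhibitors of helix-loop-helix factors and classical targets of BMP signalling, were among the shared lower genes. Id1 was at 72.7, 157 and 124 FPKM in Serum, 8.06, 5.76 and 11.3 in 2i, and 21.1, 47.9 and 41.2 in Paused (−2.65 ± 0.27, limma adjusted p = 0.0057). Id2 was at 29.9, 43.3 and 35.8 FPKM in Serum, 1.03, 1.52 and 0.787 in 2i, and 19.3, 15.8 and 32.8 in Paused (−2.42 ± 0.24, limma adjusted p = 0.0057). Id3 was at 82.8, 66.2 and 56 FPKM in Serum, 17, 56.6 and 22.4 in 2i, and 29.8, 23.3 and 25.9 in Paused (−1.29 ± 0.34, limma adjusted p = 0.037). Id1 and Id2 stayed called without any single library. In Id2 Paused minus Serum was −0.71 and did not pass alone (limma adjusted p = 0.12), with Paused 3.43 above 2i. In Id1 the Paused level lay between the others, and in 2i Id3 fell least in v6.5. The BMP and TGFb list as a whole had 5 fallen and 1 risen gene of 23 tested, beside 13.1% and 12.9% of all tested genes, and a median of −0.06. Its count of fallen genes was 2 without Oct4 GiP Serum and 3 without Oct4 GiP 2i or any of the Paused libraries.

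Few naive pluripotency genes were called. Of 20 tested naive pluripotency genes, 1 rose and 1 fell, with a median of 0.70, and 0.03, 1.52 and 0.50 for E14, v6.5 and Oct4 GiP. The risen count was 5 without E14 Serum or E14 2i, 3 without v6.5 2i, and 0 without v6.5 Serum, Oct4 GiP Serum, any Paused library or the line as a block. The fallen count was 0 without v6.5 or Oct4 GiP Serum. After rescaling, 0 were higher and 2 lower. Nanog was at 239, 42.8 and 185 FPKM in Serum, 329, 371 and 383 in 2i, and 158, 72.5 and 200 in Paused (0.81 ± 0.40, limma adjusted p = 0.17). Klf4 was at 81.6, 12.2 and 63.2 FPKM in Serum, 141, 166 and 139 in 2i, and 112, 69 and 93.7 in Paused (1.50 ± 0.45, limma adjusted p = 0.054). Esrrb was at 156, 25.2 and 144 FPKM in Serum, 183, 248 and 234 in 2i, and 172, 109 and 249 in Paused (1.20 ± 0.46, limma adjusted p = 0.1). In all 3 genes the v6.5 Serum library was the lowest of the 9, and neither Klf4 nor Esrrb was called although both conditions lay above Serum in every line.

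The naive gene that fell was Dppa3, a maternal factor that protects methylated DNA, at 28.7, 28 and 27.3 FPKM in Serum, 10.4, 4.98 and 5.19 in 2i, and 11.8, 8.74 and 1.62 in Paused (−2.01 ± 0.38, limma adjusted p = 0.016). The one that rose was Stat3, which carries the LIF signal, at 31.1, 26.5 and 33.9 FPKM in Serum, 38.2, 31.9 and 38.8 in 2i, and 39, 33.2 and 43.8 in Paused (0.29 ± 0.06, limma adjusted p = 0.022). On the rescaled values Stat3 was called lower, at −0.35 (limma adjusted p = 0.032). Il6st, the gp130 receptor of LIF, rose by 0.79 ± 0.13 (limma adjusted p = 0.012) and was not called on the rescaled values (0.19). Utf1, a chromatin factor of ES cells, was at 543, 719 and 508 FPKM in Serum, 121, 175 and 85.3 in 2i, and 489, 621 and 405 in Paused. It was called lower in the mean (−1.24 ± 0.10, limma adjusted p = 0.0047), yet Paused minus Serum alone was −0.23 (limma adjusted p = 0.19).

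Targets of ERK signalling and genes of the formative state were called lower in the mean and mostly not shared. Of 24 tested ERK feedback and immediate early genes, 9 fell but 2 were shared lower genes, Jun and Ier3, and the list median was 0.16 in Paused and −1.04 in 2i. Of 16 tested formative and primed genes, 9 fell and 2 were shared, with medians of 0.13 and −2.28. The ERK count was 1 without Oct4 GiP Serum, and the formative count was 3 without v6.5 Serum, 1 without Oct4 GiP Serum and 5 without v6.5 Paused, and 4 without the line as a block. Myc was at 55.2, 63.3 and 64.6 FPKM in Serum, 3.8, 5.4 and 7.51 in 2i, and 66.5, 99.2 and 84 in Paused, above Serum in each Paused library. Dnmt3l, a cofactor of DNA methyltransferases, was at 363, 491 and 229 FPKM in Serum, 32.4, 45.1 and 7.69 in 2i, and 403, 907 and 251 in Paused. Both were called lower in the mean (−1.42 for Myc, −1.74 for Dnmt3l) although Paused lay above Serum in each line. Jun was at 5.39, 8.82 and 5.36 FPKM in Serum, 1.41, 2.16 and 2.58 in 2i, and 3.06, 2.84 and 2.44 in Paused (−1.13 ± 0.18, limma adjusted p = 0.011).

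Genes of the amino acid response, known for their control by Atf4, and of cholesterol synthesis had called members but no shared one. Of 30 tested amino acid response genes 8 rose, 0 fell and 0 were shared, with a median of −0.46 in Paused and 1.16 in 2i. Without the line as a block 0 were called, and the count was 3, 2 and 1 without the E14, v6.5 and Oct4 GiP Serum libraries and 5, 4 and 5 without the E14, v6.5 and Oct4 GiP Paused libraries. In the rescaled columns 0 were higher and 12 lower. Of 22 tested cholesterol genes 4 rose and 0 were shared, with medians of −0.45 and 0.90, and all 22 were called lower in Paused than in 2i. The risen count was 0 without v6.5 Serum, Oct4 GiP Serum or Oct4 GiP 2i, 1 or 2 without each of the other libraries, and 2 without the line as a block. After rescaling, 0 were higher and 7 lower.

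Imprinted genes, expressed from 1 parental copy, included called genes of both directions. Of 17 tested, 10 fell, 2 rose and 7 were shared lower genes, with a median of −0.74 that was −0.24, −0.92 and −0.83 for E14, v6.5 and Oct4 GiP. The count was 3 without v6.5 Serum, 1 without Oct4 GiP Serum and 6 without the line as a block, and on the rescaled values 13 were lower and 0 higher. Igf2, insulin-like growth factor 2, was at 9.37, 2.89 and 7.79 FPKM in Serum, 0.0856, 0.0841 and 0.408 in 2i, and 1.4, 0.785 and 0.55 in Paused (−2.25 ± 0.27, limma adjusted p = 0.0076). Phlda2, a growth-restricting gene of the placenta, was at 41.3, 145 and 40.9 FPKM in Serum, 1.08, 4.19 and 3.52 in 2i, and 38.7, 36.2 and 36.3 in Paused. Cdkn1c, the cyclin-dependent kinase inhibitor p57, was at 28.2, 71 and 33 FPKM in Serum, 0.559, 1.68 and 2.96 in 2i, and 24.9, 51.4 and 14.8 in Paused. In Phlda2 and Cdkn1c most of the fall was in 2i, and Paused minus Serum did not pass alone (−0.75, limma adjusted p = 0.24, and −0.58, limma adjusted p = 0.37). Sfmbt2, an imprinted Polycomb-related gene named after its values were seen, fell in both: 14.7, 14.9 and 12.1 FPKM in Serum, 4.66, 1.62 and 2.06 in 2i, and 4.06, 1.66 and 3.2 in Paused (−2.01 ± 0.21, limma adjusted p = 0.0057).

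How far the conditions stood from each other was tested by Paused minus 2i, which uses no Serum library and called 44.4% of all genes. Of the 1058 shared higher genes, 2i was further from Serum in 351, Paused in 71, and the difference was not called in 636. Of the 1244 shared lower genes, 2i was further in 336, Paused in 116, and the difference was not called in 792. A missed threshold does not show that the conditions were alike. Genes further from Serum in 2i than in Paused included Man2a1, a Golgi mannosidase, at 5.53, 5.24 and 4.63 FPKM in Serum, 28.2, 30 and 35.1 in 2i, and 5.73, 6.82 and 5.45 in Paused (Paused minus 2i −2.20, limma adjusted p = 0.00031). Slc35f6 was at 5.3, 4.24 and 4.4 FPKM in Serum, 88.1, 52.2 and 55.3 in 2i, and 5.3, 5.02 and 50.8 in Paused, so that the Oct4 GiP line alone was high in Paused. Cldn6, a claudin of early epithelia, was at 56.9, 82.9 and 27.9 FPKM in Serum, 4.39, 2.6 and 1.45 in 2i, and 44.3, 33.3 and 16.5 in Paused (Paused minus 2i 3.05, limma adjusted p = 0.00054). Paused was further from Serum than 2i in Hmox1, heme oxygenase 1, at 87, 169 and 133 FPKM in Serum, 69.5, 85.9 and 76.5 in 2i, and 32.5, 69.6 and 43.1 in Paused (Paused minus 2i −0.73, limma adjusted p = 0.011).

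Other shared genes had similar values in both. Mllt10, a chromatin factor that recruits the methyltransferase Dot1l, was at 9.48, 13.5 and 11.3 FPKM in Serum, 21.3, 25.8 and 23.3 in 2i, and 21.5, 28.1 and 28.1 in Paused (1.05 ± 0.08, limma adjusted p = 0.0047). Slc27a1, a fatty acid transporter, was at 8.49, 10.2 and 9.31 FPKM in Serum, 16.5, 22.8 and 19.8 in 2i, and 15.6, 20.6 and 21 in Paused (0.97 ± 0.08, limma adjusted p = 0.0049). Trak1, which links mitochondria to kinesin, was at 11.8, 9.3 and 12.1 FPKM in Serum, 28.2, 21.4 and 31.7 in 2i, and 21.7, 19.9 and 27.8 in Paused (1.10 ± 0.08, limma adjusted p = 0.0047). These genes, named after their values were seen, rose without overlap between the groups and stayed called without any single library. In the mean of both conditions they were called higher on the rescaled values too (0.45, 0.38 and 0.51). On those values the E14 Paused library lay below E14 Serum in Slc27a1 and Trak1.

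**Figure D4:**
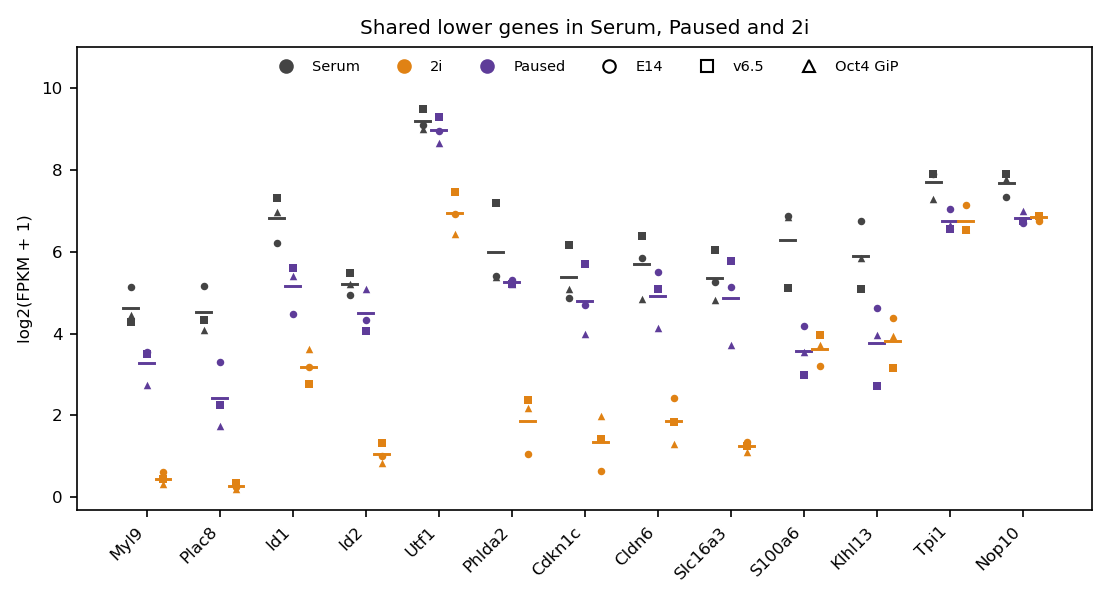
Points give log2(FPKM + 1) of each library for 13 shared lower genes in Serum, Paused and 2i, with lines by shape and short bars for the mean of 3 libraries. From Myl9 to Slc16a3 the Paused mean lies above the 2i mean, while in S100a6, Klhl13, Tpi1 and Nop10 the means of both are close.

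Shared higher and shared lower genes differed in transcript length and level. The longest annotated transcript (GENCODE vM21, matched for 94.4% of tested genes) had a median of 4372 bases in the shared higher, 2419 in the shared lower and 3206 in all tested genes. The tested genes were split into 3 parts of similar size by this length. Among the shortest (up to 2421 bases), 4.05% were shared higher and 14.7% shared lower genes. In the middle these shares were 7.11% and 8.81%, and from 4133 bases upward they were 13.4% and 5.77%. Mean FPKM had a median of 8.59 in the shared higher, 31.4 in the shared lower and 11.6 in all tested genes. Lysosomal genes rose and mitochondrial ribosome genes fell also after each library was corrected for transcript length and its GC content, with 22 risen of 38 and 23 fallen of 55. Over all genes that correction left 1425 higher and 1433 lower of 12002 genes with a length, 920 and 1084 of them on that side of Serum in every line.

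**Figure D5:**
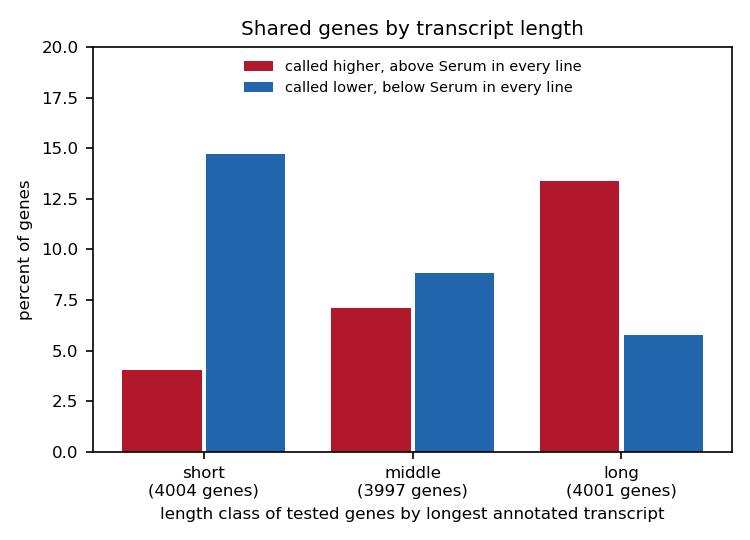
Bars give the percent of genes in each of 3 length classes by longest annotated transcript that were shared higher (red) or shared lower (blue) on the FPKM scale. Shared higher genes rise from 4.05% to 13.4% and shared lower genes fall from 14.7% to 5.77% from the short to the long class; on the rescaled values far fewer genes were called higher (270 in all, 2.12%) than lower (8134, 64%).

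The shared genes were spread over the genome. Between 5.76% and 11.2% of tested genes of a chromosome were shared higher genes, the lowest on chromosome 1 and the highest on chromosome 16. Between 7.99% and 13% were shared lower genes, the lowest on chromosome 13 and the highest on the X chromosome.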

How the data were processed

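RNA-seq libraries of 9 ES cell cultures were compared. The authors deposited 1 table; its FPKM columns were made with Cuffnorm on the mm10 build, per the submitters' processing notes, which give no version. The authors also deposited a rescaled signal column per library, which equals FPKM times 1 constant per library; not given in the sources used here are how it was made, from spike-in or otherwise, the aligner, the annotation and the use of strand. Without stated use of strand, overlapping and antisense genes are uncertain. Summed FPKM was 1451983 to 2133969 per library, and 5644 rows without a gene name, holding 52.8% to 64.0% of it, were left out, as were 113 identical repeats.

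Rows that reached an FPKM of 1 in 3 or more of the 9 libraries were tested with limma 3.58.1 (limma-trend, R 4.3.3) on log2(FPKM + 1), with cell line as a block, all 9 libraries in 1 fit (4 residual degrees of freedom) and Benjamini-Hochberg adjustment at 0.05. The scale understates changes of low genes. The scripts were tested on simulated data. Lines pair the conditions by the labels: deviations from condition means correlated at -0.001 to 0.401 within a line (9 pairs) and at -0.243 to 0.094 between lines (18 pairs). Nothing says that the cultures of a line were separate experiments, so p-values measure how condition differences vary between these 3 lines.

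Members, gene lists and tests were chosen with earlier results of these data known. Named genes were shared genes, ranked by the smaller of their changes in Paused and in 2i: 12 per direction, up to 3 per list and 5 per sign of Paused minus 2i, with a mean FPKM of at least 5 for the ranked names, besides a panel of known genes and those at the threshold; some genes that this rule names are not reported here. Alternatives covered the pseudocount, low-value filters, scaling, the block, the variance trend and leaving out libraries or lines. Correcting libraries for GC content and length of transcripts, and using the rescaled values relative to the median gene, were alternatives added after seeing the data. Promoters matched 77% of tested genes, by symbol or synonym.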

Additional observations from a re-analysis of the deposited data

Results flagged for a closer look

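Pluripotency factors whose changes ran in opposite directions between lines are listed here, because both conditions lay below Serum in 1 line and above it in another. Pou5f1, the Oct4 gene, changed by −0.28 in E14 and by 0.13 in v6.5 (mean of Paused and 2i minus Serum, log2). Zfp42, the naive marker Rex1, changed by −0.31 in E14 and by 1.49 in v6.5. The difference between the lines was not tested, since each line gave 1 library per condition.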

How the results depend on the processing

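On the authors' rescaled values 270 genes were called higher and 8134 lower, 29 and 5887 of them on that side of Serum in every line. Called or not, 38 genes lay above and 6082 below Serum in every line there. Of the genes both called and on 1 side in every line, 2373 were called lower in Paused than in 2i (467 on the FPKM scale). Another 497 were called higher in Paused (407 on the FPKM scale). Relative to the median gene 1271 were higher and 2278 lower on the FPKM scale, and 1535 and 2411 on the rescaled values. Called genes named here that changed direction on the rescaled values were Stat3 (−0.35), Mxi1 (−0.08), Eif4a2 (−0.11), Tsc1 (−0.02), Kdm6b (−0.04), Mtor (−0.23) and Ccnt1 (−0.34), while Sox2 (−0.43) and Zfp42 (−0.27) changed direction there without a call on the FPKM scale. Other genes that were not called also turned: Pou5f1 without E14 Serum or that line (0.02) and after the length correction (0.05), Zfp42 without v6.5 Serum or that line (−0.17), Otx2 without E14 2i (0.05) and Lefty2 without E14 Serum or that line (0.06). Without 1 library at a time these genes ranged from −0.19 to 0.02 (Pou5f1), −0.17 to 0.73 (Zfp42), −0.72 to 0.05 (Otx2) and −1.80 to 0.06 (Lefty2).

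Leaving out 1 library at a time gave 81 to 2014 higher and 114 to 2215 lower genes, and 69 to 1310 and 99 to 1715 on that side in every line. Without line E14 the counts were 875 and 1006 (696 on that side for higher genes), without v6.5 102 and 179 (75 and 158), and without Oct4 GiP 4 and 0 (1 and 0; in that limma fit 1534 genes were higher and 1599 lower at an unadjusted p under 0.05). These fits have fewer samples. Asking both conditions to pass alone left 349 and 502, and asking at least 0.2 log2 from Serum in every line left 549 above and 660 below. Without the replicate block, that is without pairing by line, 1195 were higher and 1283 lower, 795 and 1020 of them on that side. Of the 123 called genes picked for naming, 122 kept the call with a pseudocount of 0.1, 111 without a filter and 110 without the block. After the length correction 114 kept it, and without Oct4 GiP Serum 40 did. Depth is unknown, so what it limits cannot be given.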

Other observations

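Rows without a gene name were tested with the same model in a separate fit, with its own adjustment over these rows. Of 2938 such rows that passed the same filter, limma called 0 higher and 1 lower in the mean of Paused and 2i against Serum, and 636 had an unadjusted p under 0.05.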
